A study of Arabidopsis thaliana with 4 samples.

Results

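The genes described here encode enzymes and related proteins that act on the pectin, xyloglucan and xylan-type polymers of the plant cell wall: *BXL2* (AT1G02640), *PME16* (AT2G43050), *XTH16* (AT3G23730), the pectin lyase-like gene AT5G63180 and the invertase/pectin methylesterase inhibitor-like gene AT5G62360. They are 5 of the 234 genes in the deposited tables of genes that differed between *msil2/4* and Col-0 stems, 2 of the 156 in the up-regulated table and 3 of the 78 in the down-regulated table. They were chosen by locus from tables that the authors had themselves selected on the difference between the same libraries. The genotype values below are therefore a description and carry no test. Messenger RNA was sequenced from the base of mature inflorescence stems of plants grown in long days without treatment, in 2 *msil2/4* and 2 Col-0 libraries. *msil2/4* is the double mutant of the T-DNA insertion alleles *msil2-1* and *msil4-1*, each a single insertion line, in genes for Musashi-like RNA-binding proteins, and the sample labels call it a knockdown. Col-0 is the wild type. Neither *MSIL2* nor *MSIL4* was in the tables, so the genotypes of the libraries could not be checked from them. Plant age and the number of plants per library are not given in the sources used here, and the checklist that accompanies the paper describes its replicates as biological.

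Values are RPKM, reads scaled to transcript length and to the mapped reads of the library, so that levels can be compared between genes. The methods give 30000000 to 35000000 reads per library, but the mapped reads behind each value were not analysed here and its counting error is unknown. For scale, 1 read on the *XTH16* transcript of 1216 bases would equal 0.0274 RPKM in a library of 30000000 mapped reads. Differences between genotypes are given on the scale of log2(RPKM + 1), which understates changes of low genes. None of 12 marker genes of stem tissues (fibers, vessels, phloem, cambium, epidermis and starch sheath) was in either table, and the labelled tissue was therefore not checked. In RNA of whole stem sections, fewer cells that express a gene and less RNA per cell cannot be told apart.

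Primary walls are built of cellulose in a matrix of pectin and hemicelluloses, and in growing stems the matrix is continuously remodelled by secreted enzymes. Pectin methylesterases remove methyl groups from homogalacturonan, and inhibitor proteins of the invertase/pectin methylesterase inhibitor superfamily bind pectin methylesterases or invertases. Demethylated homogalacturonan can be cleaved by pectate lyases and polygalacturonases, which share the pectin lyase-like fold. Xyloglucan endotransglucosylase/hydrolases (XTH) cut and rejoin xyloglucan chains, and beta-xylosidases (BXL) release xylose, in some members also arabinose, from the ends of wall polysaccharides. The names of the 5 genes vary in how much they say. AT5G62360 is annotated as an inhibitor-like protein and not as an enzyme, *PME16* is placed in the same superfamily by the RefSeq description, and the pectin lyase-like description of AT5G63180 does not name a substrate.

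All 5 genes belong to families of similar copies, so their coding sequences were first compared with those of all other protein-coding genes. No 75-base window of the 5 transcripts, the length of the reads, matched the transcript of another gene with up to 2 mismatches, in 891 windows of AT5G62360 to 2699 windows of *BXL2*. The longest stretches that the coding sequences of *BXL2*, *XTH16* and AT5G63180 shared exactly with another gene were 20, 26 and 32 bases. For *PME16* it was 28 bases shared with *PME61*, and for AT5G62360 29 bases of a CAA-rich repeat in an unrelated gene. The stretches shared within a family by *BXL2*, *XTH16* and AT5G63180 are shown as the longest exact coding matches of these genes to another gene. Capitals mark the shared stretch and lower case the 10 bases on either side, from the RefSeq annotation of TAIR10.1.
*BXL2*, shared with *BXL1*: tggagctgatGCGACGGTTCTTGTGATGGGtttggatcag
*BXL1*, same stretch: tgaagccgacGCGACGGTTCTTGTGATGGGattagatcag
*XTH16*, shared with *XTH15*: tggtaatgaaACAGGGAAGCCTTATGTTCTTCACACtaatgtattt
*XTH15*, same stretch: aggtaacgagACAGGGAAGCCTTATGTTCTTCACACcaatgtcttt
AT5G63180, shared with AT5G48900: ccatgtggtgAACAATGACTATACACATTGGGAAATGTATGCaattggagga
AT5G48900, same stretch: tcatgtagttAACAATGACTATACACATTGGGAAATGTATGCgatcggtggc
Family members were ranked by identical bases as a share of the whole coding length of each of the 5 genes. Identity is given over the aligned bases, without gaps. The closest family member was *BXL1* for *BXL2*, with 69.3% identity, and *XTH15* for *XTH16*, with 81.7% identity. For AT5G63180 it was AT4G24780, with 75.4% identity. For *PME16* it was AT4G15980, with 66.5% identity, and for AT5G62360 it was AT5G27870, with 81.2% identity. Distant pairs also reach high values by this measure, since AT1G80170, ranked 42 of 102 family members for AT5G63180, had 61.6% identity.

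The inhibitor-like gene AT5G62360 (chr5:25040540-25041504, plus strand, a single exon) had the largest difference from Col-0 among the 5 genes on the scale of log2(RPKM + 1). By the ratio of means AT5G63180 differed slightly more, 6.89-fold against 6.67-fold, and with a pseudocount of 0.01 RPKM the log2 differences were 2.79 for AT5G63180 and -2.73 for AT5G62360. AT5G62360 was at 16.2 and 14.8 RPKM in the *msil2/4* libraries, against 115 and 92.6 RPKM in the Col-0 libraries. Both mutant libraries lay far below both wild-type libraries, and the replicates of a genotype were close to each other. The means were 15.5 ± 0.997 RPKM in *msil2/4* and 104 ± 15.7 RPKM in Col-0 (SD, n = 2 each), a 6.67-fold lower level in the mutant. The log2 difference was -2.66 (standard error 0.17), rank 8 by size among the 78 down-regulated genes. Between single libraries it was 5.70-fold to 7.74-fold lower in *msil2/4*.

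The beta-xylosidase gene *BXL2* (chr1:564018-567771, plus strand, 5 exons) was at 26.6 and 33.5 RPKM in the *msil2/4* libraries, against 106 and 91.0 RPKM in the Col-0 libraries. The groups did not overlap. Its means were 30.0 ± 4.89 RPKM in *msil2/4* and 98.3 ± 10.3 RPKM in Col-0 (SD, n = 2 each), and the log2 difference was -1.68 (standard error 0.19). The pectin methylesterase gene *PME16* (chr2:17902370-17904443, plus strand, 2 exons) was expressed at a lower level, at 3.11 and 4.03 RPKM in the *msil2/4* libraries, against 12.8 and 12.1 RPKM in the Col-0 libraries. Again both mutant libraries were below both wild-type libraries. The means of *PME16* were 3.57 ± 0.651 RPKM in *msil2/4* and 12.5 ± 0.481 RPKM in Col-0 (SD, n = 2 each), with a log2 difference of -1.57 (standard error 0.15). The ratio of means was 3.27-fold lower in *msil2/4* for *BXL2* and 3.50-fold lower for *PME16*, and their levels in Col-0 differed widely. All listed genes had to pass the authors' fold limit of 2.83, so nothing is read from the similar ratios.

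The pectin lyase-like gene AT5G63180 (chr5:25340914-25343369, minus strand, 4 exons) was at 4.25 and 10.01 RPKM in the *msil2/4* libraries, against 1.48 and 0.59 RPKM in the Col-0 libraries. The groups did not overlap, but the replicates differed 2.36-fold in *msil2/4* and 2.51-fold in Col-0. Its means were 7.13 ± 4.07 RPKM in *msil2/4* and 1.03 ± 0.629 RPKM in Col-0 (SD, n = 2 each), 6.89-fold higher in the mutant, with a log2 difference of 1.94 (standard error 0.62). The closest pair of libraries, *msil2/4* replicate 1 and Col-0 replicate 1, still differed 2.87-fold.

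*XTH16* (chr3:8550037-8551403, plus strand, 3 exons), which encodes a xyloglucan endotransglucosylase/hydrolase, was at 2.2 and 21.9 RPKM in the *msil2/4* libraries, against 6.6 and 0.49 RPKM in the Col-0 libraries. The lower mutant library lay below the higher wild-type library, so the groups overlapped. Within a genotype the libraries differed 9.96-fold in *msil2/4* and 13.5-fold in Col-0, more than the 3.40-fold ratio between the means of 12.1 ± 13.9 RPKM in *msil2/4* and 3.54 ± 4.32 RPKM in Col-0 (SD, n = 2 each). The log2 difference of 1.35 was smaller than its standard error of 1.84. Without *msil2/4* replicate 2 it was -0.07, and without Col-0 replicate 2 it was 0.17. The tables hold genes beyond a log2 fold change of 1.5. The methods describe the fold change as a ratio of normalized read counts, mutant to wild type, and the authors' own fold changes were not used here. Computed from the authors' values per genotype with no pseudocount, the log2 ratio was 1.59 for *XTH16*, just inside the limit. It was 2.61 for AT5G63180, and -1.89, -1.99 and -2.91 for *BXL2*, *PME16* and AT5G62360. With 1 RPKM added, the same values gave 1.36 for *XTH16*. Genes just outside the limit were not analysed here. At 0.49 RPKM in Col-0 replicate 2, *XTH16* was also below the filter of 1 RPKM per library that the methods describe, as were 64 of the 234 listed genes in at least 1 library, AT5G63180 included.

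**Figure D1:**
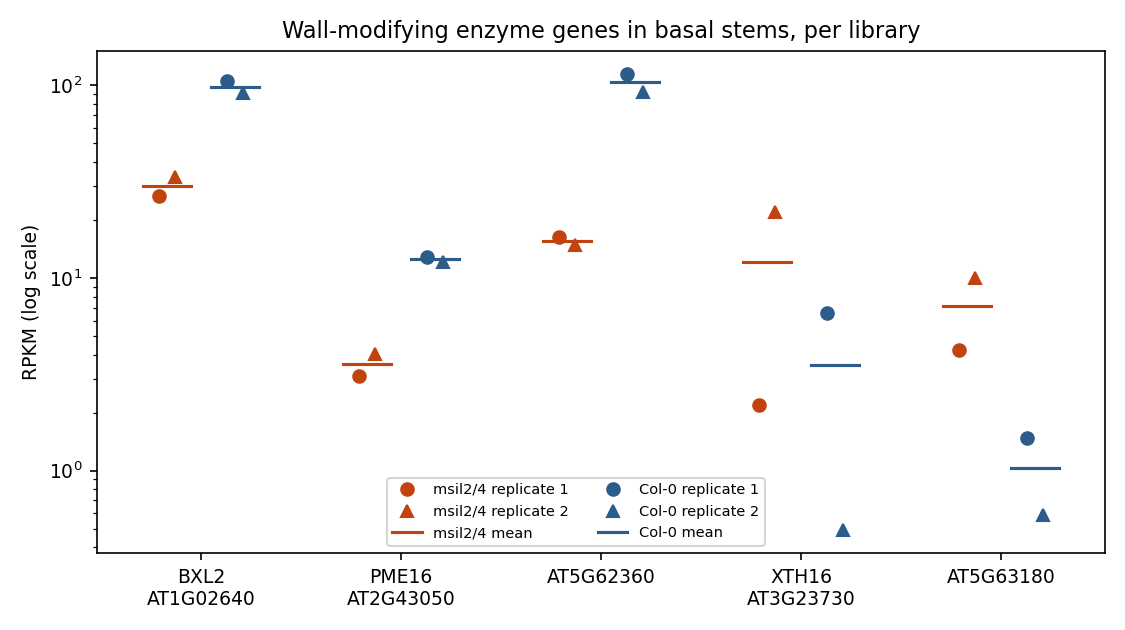
RPKM on a log scale for the 5 genes, with *msil2/4* libraries left of Col-0 libraries; circles are replicate 1, triangles replicate 2 and horizontal lines the mean of 2 libraries. For *BXL2*, *PME16* and AT5G62360 the *msil2/4* libraries lie below both Col-0 libraries, for AT5G63180 they lie above, and for *XTH16* the libraries of the genotypes interleave between 0.49 and 21.9 RPKM.

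Counted over the group, 3 of the 5 genes had both *msil2/4* libraries below both Col-0 libraries and 1 had both above. Of all 234 listed genes, 33.3% had both mutant libraries below and 65.8% had both above, and only 2 overlapped, *XTH16* being one of them. Since these are tables of genes called different on the same libraries, nothing is read from these counts. Each of the 4 pairings of an *msil2/4* with a Col-0 library gave the same direction for *BXL2* (log2 differences from -1.95 to -1.42), *PME16* (-1.75 to -1.39), AT5G62360 (-2.87 to -2.44) and AT5G63180 (1.08 to 2.79). For *XTH16* the 4 pairings ran from -1.25 to 3.94. Its difference was -1.25 between the libraries numbered 1 and 3.94 between those numbered 2.

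**Figure D2:**
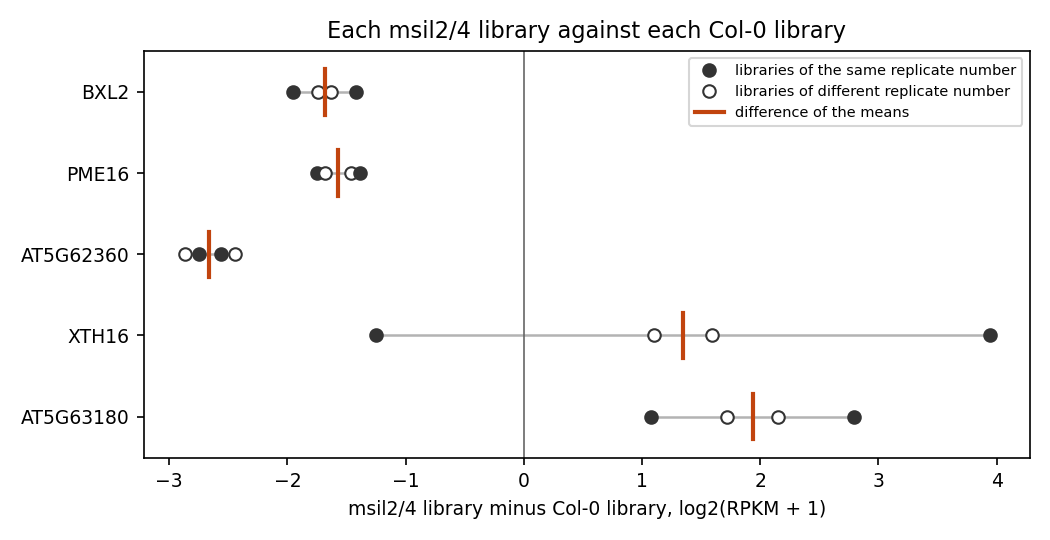
Difference of each *msil2/4* library from each Col-0 library on the scale of log2(RPKM + 1); filled circles join libraries of the same replicate number, open circles those of different number, and the vertical bar is the difference of the means. The 4 pairings stay within -1.95 to -1.42 for *BXL2*, while those of *XTH16* lie on both sides of 0, from -1.25 to 3.94.

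The 5 genes also differed in the spread between replicates. Cuffdiff takes this spread into account when it calls a gene, so the values are given as a description, beside those of the other genes called in the same way. The absolute difference between replicates was 0.32 in *msil2/4* and 0.21 in Col-0 for *BXL2*, 0.29 and 0.07 for *PME16*, and 0.12 and 0.31 for AT5G62360, on the log2 scale and in the same order of genotypes. These lie below the medians over all 234 listed genes, 0.39 in *msil2/4* and 0.45 in Col-0. AT5G63180, with 1.07 in *msil2/4* and 0.64 in Col-0, was above both medians. *XTH16* was among the most variable genes of the tables, with 2.84 in *msil2/4* (rank 2 of 234) and 2.35 in Col-0 (rank 3 of 234). The order of the replicates was opposite in the genotypes, since replicate 2 of *XTH16* was the higher one in *msil2/4* and the lower one in Col-0. The same order held for AT5G63180, *BXL2* and *PME16*, thus 4 of the 5 genes, and for 54 of the 234 listed genes (23.1%). A replicate difference beyond 1 in both genotypes in this order was found in 3 listed genes, *XTH16*, the lipid transfer protein gene *LTP1* and the expansin-like gene *EXLB1*. *LTP1* was at 62.8 and 337 RPKM in the *msil2/4* libraries, against 9.87 and 1.64 RPKM in the Col-0 libraries. *EXLB1* was at 8.01 and 24.9 RPKM in the *msil2/4* libraries, against 2.02 and 0.26 RPKM in the Col-0 libraries. *LTP1*, *EXLB1* and their values were picked out after the values had been seen.

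**Figure D3:**
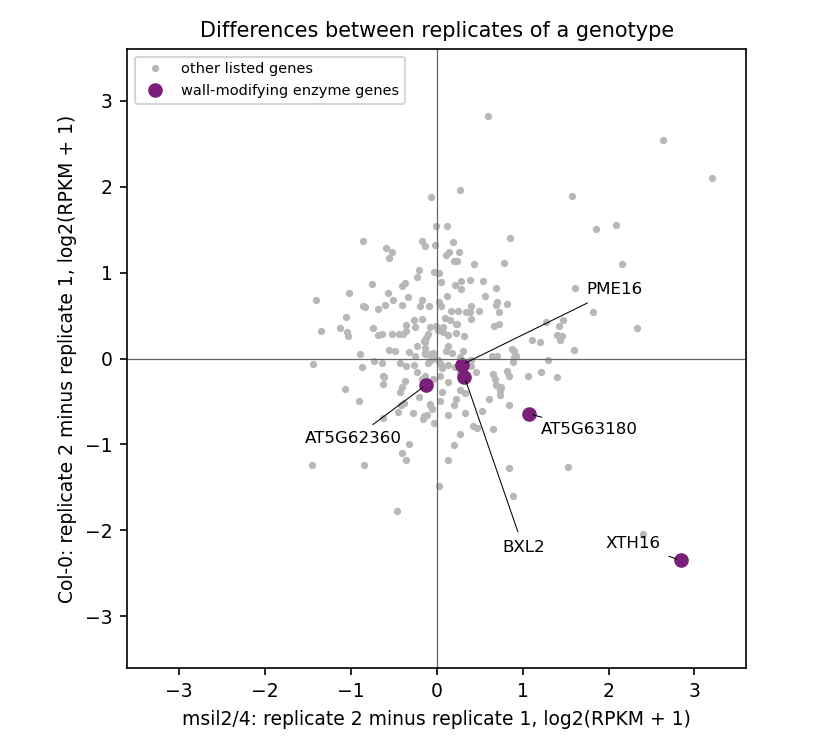
Replicate 2 minus replicate 1 on the scale of log2(RPKM + 1), in *msil2/4* on the horizontal axis and in Col-0 on the vertical axis, for all 234 listed genes (grey) and the 5 wall-modifying genes (purple). *XTH16* lies far from the origin at 2.84 and -2.35, AT5G63180 at 1.07 and -0.64, and the other 3 genes lie close to 0.

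The order of levels among the 5 genes differed between the genotypes. In *msil2/4*, *BXL2* had the highest mean at 30.0 RPKM and its libraries lay above those of AT5G62360 at 15.5 RPKM. The wide range of *XTH16* (12.1 RPKM) took in the libraries of AT5G62360, AT5G63180 (7.13 RPKM) and *PME16*. *PME16* was lowest at 3.57 RPKM, with both its libraries below those of AT5G63180. In Col-0, AT5G62360 at 104 RPKM and *BXL2* at 98.3 RPKM overlapped, followed by *PME16* at 12.5 RPKM with no overlap on either side. *XTH16* (3.54 RPKM) and AT5G63180 (1.03 RPKM) overlapped at the low end. *PME16* thus stood above AT5G63180 in Col-0 and below it in *msil2/4*.

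The listed genes with the most similar profile were taken as the 3 with the smallest Euclidean distance over the 4 libraries, on log2(RPKM + 1) after subtraction of each gene's mean. All listed genes were called on the genotype contrast of these same libraries, so genes of 1 table share that step. Nothing is read from the small distances. For *BXL2* these were *BT1* (distance 0.13), *BXL1* (0.15) and *PME16* (0.15). *BT1* (AT5G63160), a BTB and TAZ domain protein gene, was at 34.2 and 45.5 RPKM in the *msil2/4* libraries, against 140 and 132 RPKM in the Col-0 libraries. For *PME16* they were *NAC096* (0.09), *BXL2* (0.15) and the wax biosynthesis gene *CER3* (0.16), and for AT5G62360 the expansin-like gene *EXLA3* (0.43), the fasciclin-like gene *FLA9* (0.47) and *RD29A* (0.53). AT5G63180 was nearest to the lipase gene *GLL22* (0.19), the receptor-like kinase gene *CRK4* (0.31) and *CER26* (0.32). *XTH16* had no close neighbor, its nearest being AT5G63180 at a distance of 1.84. *BT1* also lies near AT5G63180 on chromosome 5, with 5343 bases between the genes, and it differed in the other direction. No other listed gene lay within 20 kb of any of the 5 genes.

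To place the 5 genes in their families, all genes of these families were looked up in the tables. Together with short lists for xyloglucan and pectin synthesis they comprise 299 genes, of which 3 were in the up-regulated table, 6 in the down-regulated table and 290 in neither. The share in a table was thus 3.01%, against 231 of all 27562 protein-coding genes, or 0.838%. The families were chosen because the 5 genes were listed, so these 5 are among the 9 listed by construction. The shares are therefore not comparable. No enrichment was computed, also because the genes that passed the authors' filter on low values are not known from the tables. Of 7 *BXL* genes, *BXL1* and *BXL2* were in the down-regulated table and 5 in neither. Of 33 *XTH* genes, *XTH16* alone was listed. Of 109 genes described as invertase/pectin methylesterase inhibitor superfamily, which includes many pectin methylesterases, 3 were in the down-regulated table, *PME16*, AT5G62360 and AT1G11362. Of 103 genes described as pectin lyase-like, AT5G63180 and AT4G13710 were in the up-regulated table and AT1G80170 in the down-regulated one. A further 31 genes with polygalacturonase, pectinesterase or pectate lyase in their description (including 2 genes of polygalacturonase inhibitors), 10 genes of xyloglucan synthesis and trimming and 6 of pectin synthesis were in neither table. Absence from the tables does not show that a gene was unchanged, since a difference smaller than 2.83-fold would not be listed, and the values of such genes were not analysed here.

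The family members that were listed beside the 5 genes had the following values. *BXL1* (AT5G49360, chr5:20011812-20016857), a beta-xylosidase and arabinosidase gene, was at 30.4 and 33.3 RPKM in the *msil2/4* libraries, against 118 and 97.5 RPKM in the Col-0 libraries. Its level was close to that of *BXL2* in each library, the ratio of *BXL2* to *BXL1* being between 0.875 and 1.00. Both genes were called lower in *msil2/4* on these same libraries, so nothing is read from the similar ratio in both genotypes. The inhibitor-like gene AT1G11362 was at 0.50 and 0.28 RPKM in the *msil2/4* libraries, against 4.06 and 3.53 RPKM in the Col-0 libraries. It was thus lower in *msil2/4* like AT5G62360, but at a level at least 26.2 times below it in every library. Both *msil2/4* values of AT1G11362 were near the floor, below the filter of 1 RPKM per library that the methods describe. AT1G80170, annotated in the table as a probable polygalacturonase, was at 49.4 and 39.1 RPKM in the *msil2/4* libraries, against 135 and 221 RPKM in the Col-0 libraries. AT4G13710, with 67.3% identity to AT5G63180 over the aligned coding bases, was at 18.5 and 13.8 RPKM in the *msil2/4* libraries, against 7.33 and 2.89 RPKM in the Col-0 libraries. Of the listed pectin lyase-like genes, the one with the highest level in Col-0 was lower in *msil2/4*, and the 2 with low levels in Col-0 were higher. The same Col-0 libraries entered the call of direction, so nothing is read from this order.

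**Figure D4:**
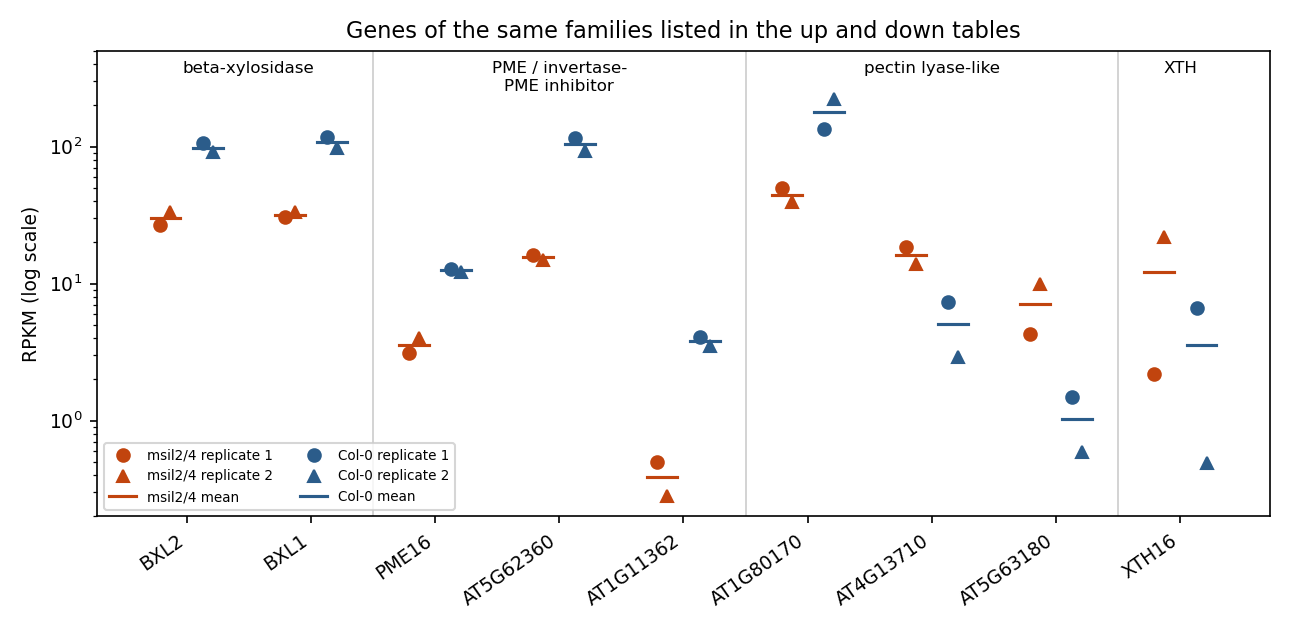
RPKM on a log scale for the 9 listed genes of the same families, with *msil2/4* libraries left of Col-0 libraries; circles are replicate 1, triangles replicate 2 and horizontal lines the means. *BXL2* and *BXL1* have nearly the same values in each library, the 3 genes of the methylesterase and inhibitor group are all lower in *msil2/4*, and the pectin lyase-like genes include AT1G80170, lower in *msil2/4*, and AT4G13710 and AT5G63180, higher in it.

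The 250 bases before the annotated transcription start of each of the 5 genes were searched on both strands for short elements known from stress, sugar and defense responses. The core of the abscisic acid response element, ACGTG, was found only upstream of AT5G63180, where its 2 matches on opposite strands overlap in 1 palindrome. This core was present upstream of 23.1% of the 27561 protein-coding genes searched. The core of the dehydration-responsive element, CCGAC, was found only upstream of AT5G62360, against 12.3% of all genes, and the element TATCCA of sugar-responsive promoters only upstream of *BXL2*, against 13.4% of all genes. The W-box core TTGAC, present in 44.6% of all genes, and the GCC box GCCGCC, in 1.87%, had no match in the 5 genes, and *PME16* and *XTH16* had none of these elements. The upstream sequences with a match are given from the RefSeq TAIR10.1 genome in the direction of transcription, with the matches in capitals.
*BXL2*, chr1:563768-564017, plus strand: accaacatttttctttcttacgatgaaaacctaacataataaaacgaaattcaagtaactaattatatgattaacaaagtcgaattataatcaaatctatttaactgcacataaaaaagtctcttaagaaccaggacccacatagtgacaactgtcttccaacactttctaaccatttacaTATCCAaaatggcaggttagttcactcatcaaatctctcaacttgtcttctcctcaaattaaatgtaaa
AT5G62360, chr5:25040290-25040539, plus strand: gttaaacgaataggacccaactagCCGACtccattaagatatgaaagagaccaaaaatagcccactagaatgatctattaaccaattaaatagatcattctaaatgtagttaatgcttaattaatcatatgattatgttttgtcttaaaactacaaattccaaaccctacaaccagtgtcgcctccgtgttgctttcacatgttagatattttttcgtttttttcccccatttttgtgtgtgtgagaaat
AT5G63180, chr5:25343370-25343619, minus strand: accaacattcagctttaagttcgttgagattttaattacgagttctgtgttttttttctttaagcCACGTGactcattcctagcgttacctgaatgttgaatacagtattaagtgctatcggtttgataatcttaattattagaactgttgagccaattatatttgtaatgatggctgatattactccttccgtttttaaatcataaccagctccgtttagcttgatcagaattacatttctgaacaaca
In *BXL2* the match begins 69 bases before the start, in AT5G62360 226 bases and in AT5G63180 185 bases. These matches describe the letters of the window and were not tested as binding sites.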

How the data were processed

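Per the submitters' processing notes and the paper's methods, the authors aligned single-end reads of 75 bases to TAIR10 with TopHat2 2.0.7 and Bowtie2 2.3.4 and quantified transcripts with Cufflinks 2.2.1. The labels and the methods name different stranded library kits. The authors deposited RPKM values per library and 1 RPKM value per genotype for the genes that Cuffdiff called different (log2 fold change beyond 1.5, P value or FDR of 0.05). The deposited tables also carry the authors' log2 fold changes, which were not used. All members and gene lists were chosen with earlier results of these data known. RPKM values have 2 decimals, a rounding worth about 0.211 reads for a typical listed transcript, and Cufflinks shares reads between transcripts, so read counts were not recovered.

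Differences, standard errors and ranks were computed on log2(RPKM + 1) with Python 3.11.15, without a filter, over all 234 listed genes, of which 231 were found among the protein-coding genes of the RefSeq TAIR10.1 annotation. The procedure was checked on simulated data whose replicates differed less than those of a typical listed gene. The check therefore does not cover variable genes such as *XTH16*. No test was run between genotypes, because these libraries selected the genes, and 2 against 2 libraries cannot give an exact permutation p below 0.333. Genes named beside the 5 are listed members of their families, the 3 nearest profiles per gene and listed genes within 20 kb. Families were taken by locus (*XTH*, *BXL*) or RefSeq description. Coding sequences (1 transcript per gene) were aligned globally with Biopython 1.88, in place of the planned protein alignment, and 75-base windows were searched with bwa 0.7.19. Positions and sequences are from TAIR10.1, since the tables carry none.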

Additional observations from a re-analysis of the deposited data

How the results depend on the processing

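With pseudocounts of 0.1 and 0.01 RPKM, the log2 difference became -1.79 and -1.81 for *PME16*, and 2.67 and 2.79 for AT5G63180, since a smaller pseudocount compresses low values less. The authors' values per genotype differ from the library means by a median factor of 0.938 in *msil2/4* and 1.06 in Col-0. Rescaling the libraries to them shifted all genes by a median of -0.16, giving -1.72 for *PME16* and -2.83 for AT5G62360, and the authors' values themselves gave -2.83 for AT5G62360 on the scale of log2(RPKM + 1). No direction changed under these settings. With 1 library left out, the log2 difference ranged from -1.85 to -1.52 for *BXL2*, -1.71 to -1.42 for *PME16*, -2.81 to -2.50 for AT5G62360, 1.40 to 2.47 for AT5G63180 and -0.07 to 2.77 for *XTH16*, which was -0.07 without *msil2/4* replicate 2. The number of genes with both groups apart stayed at 3 for lower levels and ranged from 1 to 2 for higher levels, *XTH16* joining without *msil2/4* replicate 1 or without Col-0 replicate 1. A filter of at least 1 RPKM in every library left 170 listed genes and 3 of the 5, so that 3 were lower and 0 higher in *msil2/4*. Of the 170 genes left, 72 were lower and 97 higher by the same count, and nothing is read from these counts. With pseudocounts of 0.1 and 0.01 RPKM, *XTH16* ranked 1 in *msil2/4*, and 3 and 8 in Col-0, by its replicate difference. Of the 3 nearest genes, those of *BXL2* were the same with a pseudocount of 0.1 RPKM, while 2 were shared for AT5G62360 and 1 each for *PME16*, *XTH16* and AT5G63180. By the annotation deposited in the tables alone, 2 family genes were in the up-regulated table and 6 in the down-regulated one.

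With the replicate number as a block, the mean differences are those without it, -1.68 for *BXL2*, -1.57 for *PME16*, -2.66 for AT5G62360, 1.35 for *XTH16* and 1.94 for AT5G63180. Within replicates 1 and 2 they were -1.95 and -1.42 for *BXL2*, -1.75 and -1.39 for *PME16*, -2.75 and -2.56 for AT5G62360, -1.25 and 3.94 for *XTH16*, and 1.08 and 2.79 for AT5G63180. No test was run with or without the block, because the same contrast had selected the genes. The labels do not say what a number shares, and over the 234 listed genes the replicate differences of both genotypes correlated with r = 0.07, across genes that are not independent.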
